A study of Arabidopsis thaliana with 6 samples.

Results

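Plant roots take up nitrate, ammonium, phosphate, potassium, sulfate, iron and other mineral nutrients through dedicated membrane proteins, most of them in the epidermis, the root hairs and the cortex. A second set of transporters moves the nutrients out of the central cells of the root into the xylem, which carries them to the shoot. Plasma membrane proton pumps energise both steps, and in Arabidopsis iron enters as the ferrous ion after reduction of ferric iron at the root surface. The genes described here are 39 Arabidopsis thaliana loci for these proteins: 6 for nitrate, 5 for ammonium, 8 for phosphate, 3 for potassium, 4 for sulfate, 4 for iron, 7 for other metals and boron, and 2 proton pumps. They were chosen by locus, and 36 of the 39 had a probe set listed under their locus, out of 22746 probe sets tested. The 3 without one of their own were AMT1;3, PHT1;1 and FRO2, the ferric chelate reductase of the root surface, which was not analysed here.

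The plants were wild-type seedlings of the Col-0 accession, grown for 8 days on vertical plates of solid medium under constant light. The nutrient content of the medium is not given in the sources used here. Zone I was the terminal 0.5 mm of the root, cap and dividing cells included, and zone II was a 1.5 mm piece in which cells elongate and hairs form. Each of these was hybridised to 3 arrays, and nothing in the labels says whether these came from separate seedlings, so p-values measure the spread between arrays, which may be technical. The values are signal intensities in arbitrary units on a linear scale, with a trimmed mean of 500 on every array as deposited, and median signals per array lay between 132 and 149.

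Markers of the labelled tissues were checked first. The 4 root cap markers had summed signals of 337 to 1151 on the zone I arrays and 45 to 195 on the zone II arrays, and the 6 measured markers of dividing cells 3167 to 5133 and 160 to 891. The 6 root hair markers summed to 111 to 525 in zone I and 32943 to 50323 in zone II, the 6 endodermis markers to 209 to 255 and 34775 to 55542, the 5 xylem markers to 281 to 1183 and 9193 to 13812, and the 3 phloem markers to 282 to 337 and 1578 to 2362. No marker was listed at 0. All 3 measured markers of green tissue were also higher in zone II, with summed signals of 307 to 547 in zone I and 1766 to 4823 in zone II. The root cap and dividing cell markers were thus higher in zone I. The other marker lists were higher in zone II, as were most nutrient genes called below. The part of any marked cell type in those results was not tested. In tissue pieces like these, fewer cells of a type and less RNA per cell cannot be told apart.

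Most nutrient transport genes that differed were higher in zone II, the piece with root hairs and differentiating vascular tissue. Of the 36 probe sets, 18 (50.0%) passed toward zone II, their signal being higher there, and 2 (5.56%) passed toward zone I. The threshold was an adjusted p under 0.05 (limma, Benjamini-Hochberg over all probe sets). Over all 22746 probe sets these shares were 18.1% and 19.8%. Every group as listed above had at least 1 gene higher in zone II, but within other metals and boron neither boron gene passed. The 2 genes higher in zone I were both metal transporters, NRAMP1 and COPT1. The median log2 difference, zone II minus zone I, was 1.56 over the 36 probe sets and -0.04 over all probe sets. After 64 was added to every signal, which damps differences between weak signals, the median was 0.77, and 19 passed toward zone II and 2 toward zone I, against 19.1% and 21.2% of all probe sets. The arrays of one zone lay entirely above those of the other for 20 members toward zone II, against 23.5% of all probe sets, and for 2 toward zone I, against 26.4%.

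**Figure D1:**
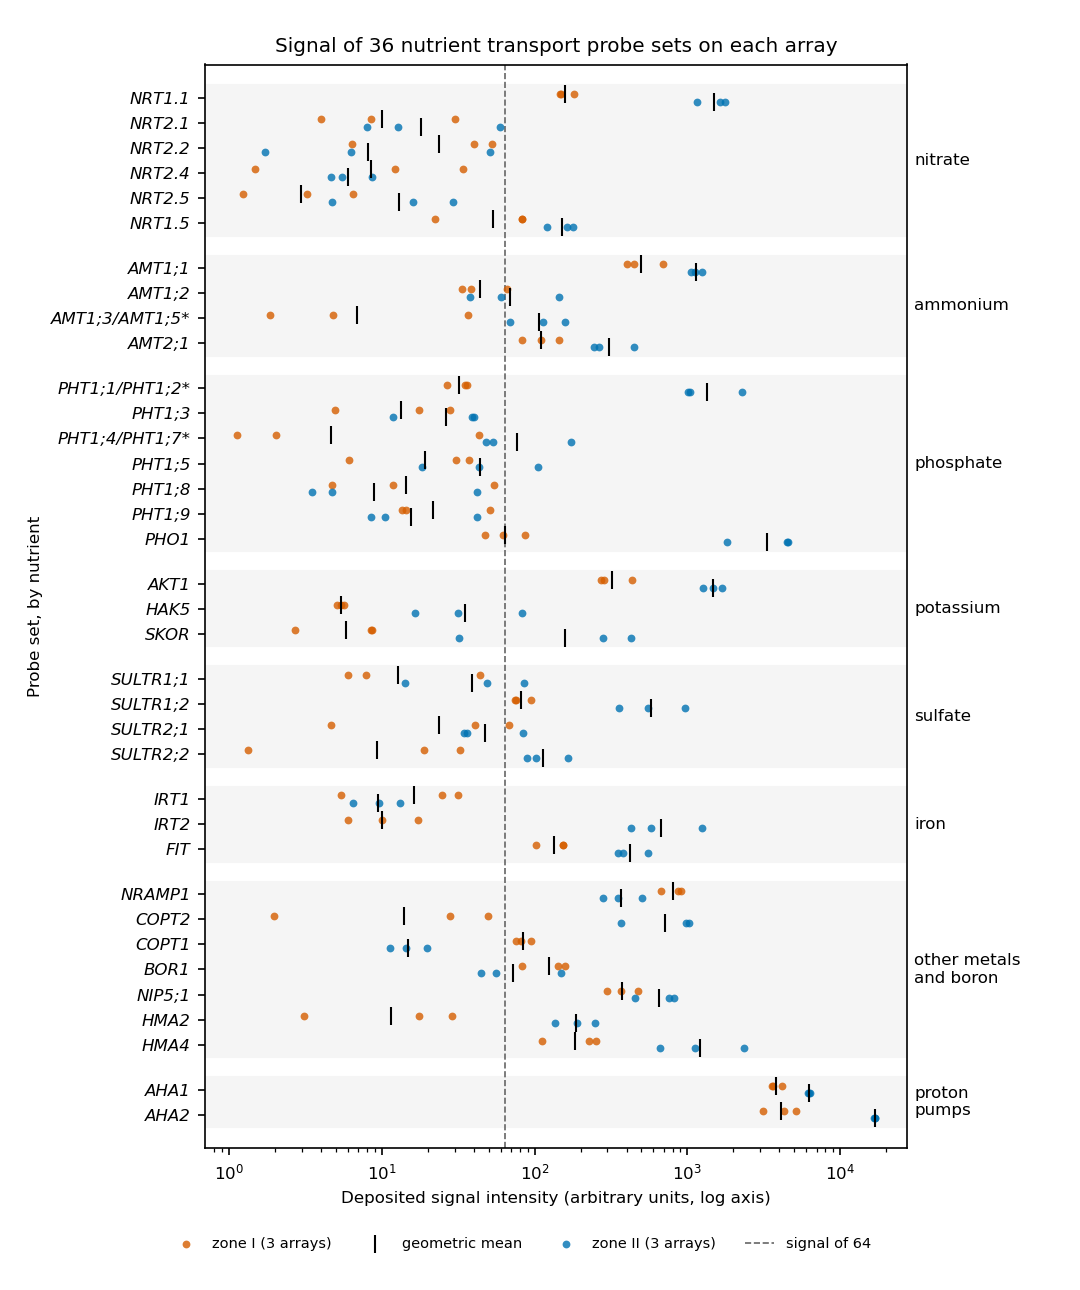
Signal intensity (log axis, arbitrary units) of the 36 probe sets on each of the 3 zone I arrays (orange) and 3 zone II arrays (blue), by nutrient, with geometric means as black bars and a dashed line at a signal of 64. An asterisk marks a probe set that may read both genes named. The 3 zone II arrays of IRT2, PHO1 and AHA2 lie far to the right of their zone I arrays, while 12 genes, the NRT2 group and IRT1 among them, keep geometric means under 64 in both zones.

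Geometric means were under 64 in both zones for 12 of the 36, and none of these was called, the smallest adjusted p being 0.0536 (limma). They were NRT2.1, NRT2.2, NRT2.4 and NRT2.5, PHT1;3, PHT1;5, PHT1;8 and PHT1;9, HAK5, SULTR1;1, SULTR2;1 and IRT1. Several of them are known as high-affinity carriers that plants raise when the nutrient is scarce. Their single-array signals ran from 1.23 to 106, and their log2 differences from -1.55 to 2.7, or from -0.23 to 0.58 with 64 added. The arrays of the zones overlapped for 11 of the 12. These weak signals do not show whether the genes differ between the zones.

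Among nitrate transporters, NRT1.1 (AT1G12110), a carrier that takes up nitrate and also senses it, was 9.48-fold higher in zone II. Its signals on arrays 1, 2 and 3 were 146, 148 and 181 in zone I and 1770.3, 1626 and 1160.2 in zone II. The groups did not overlap, and the log2 difference was 3.24 ± 0.25 (SE, n = 3 per zone, adjusted p = 6.16e-06, limma). NRT1.5 (AT1G32450), which loads nitrate into the xylem, had signals of 22.4, 82.5 and 82.7 in zone I and 179, 120.0 and 163 in zone II. All 3 zone II arrays were above all 3 zone I arrays, but the difference of 1.51 ± 0.62 (SE, n = 3 per zone) did not pass (adjusted p = 0.0819, limma; 95% interval 0.13 to 2.88). The difference was 0.88 (adjusted p = 0.225, limma) without zone I array 1, the lowest of its zone. With 64 added it passed, at 0.82 with an adjusted p of 0.0467 (limma). The high-affinity carriers NRT2.1 and NRT2.2, whose genes lie next to each other on chromosome 1 in the TAIR10.1 annotation, were weak on all 6 arrays. NRT2.1 had 30.0, 3.99 and 8.52 in zone I and 7.98, 59.6 and 12.7 in zone II. The zones overlapped for NRT2.1 as for NRT2.2, NRT2.4 and NRT2.5. In all, 1 of 6 nitrate genes (16.7%) passed toward zone II, near the 18.1% of all probe sets that did.

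Of 4 ammonium probe sets, 3 (75.0%) were called, all with higher signal in zone II, against 18.1% of all probe sets. AMT1;1 (AT4G13510), a high-affinity ammonium transporter of root epidermis and hairs, had signals of 692, 402 and 448 in zone I and 1061, 1115 and 1244 in zone II. These groups did not overlap, and the difference was 1.19 ± 0.24 (SE, n = 3 per zone, adjusted p = 0.00259, limma), or 2.28-fold. AMT2;1 (AT2G38290), a more distant member of the family, had 109.8, 146 and 82.6 in zone I and 245, 262 and 445 in zone II, with a difference of 1.48 ± 0.40 (SE, n = 3 per zone, adjusted p = 0.0128, limma). Its call ended without zone II array 3, where it was highest (1.21, adjusted p = 0.0561, limma). One probe set, listed under AMT1;5 (AT3G24290) but given the gene name AMT1;3 in the authors' deposited table, may read both of these neighbouring uptake genes. It had 36.4, 4.84 and 1.87 in zone I and 113, 69.3 and 158 in zone II, with a difference of 3.96 ± 1.12 (SE, n = 3 per zone, adjusted p = 0.0160, limma) or 1.18 with 64 added. Without overlap between the zones, the call still ended without zone I array 2 (3.70, adjusted p = 0.0507, limma) or zone II array 3 (3.68, adjusted p = 0.0556, limma). AMT1;2, an ammonium transporter of cortex and endodermis, had overlapping signals of 33.7 to 66.4 and 37.7 to 145, and its difference of 0.65 did not pass (95% interval -0.94 to 2.24).

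Phosphate genes held 2 of the 4 largest differences among the 36. PHO1 (AT3G23430), which exports phosphate toward the xylem, had signals of 62.3, 87.2 and 47.6 in zone I and 4484, 4537 and 1803 in zone II. The zones did not overlap, and the difference was 5.70 ± 0.38 (SE, n = 3 per zone, adjusted p = 3.49e-06, limma), or 4.72 with 64 added. The probe set listed under PHT1;2 (AT5G43370) is described in the authors' deposited table as PHT1;1, so it may read both of these phosphate uptake carriers. It had 26.6, 35.1 and 36 in zone I and 2267, 1046 and 1006 in zone II, with a difference of 5.37 ± 0.40 (SE, n = 3 per zone, adjusted p = 5.36e-06, limma), or 3.86 with 64 added. Again no zone I array reached any zone II array. PHT1;3, whose gene lies directly between PHT1;1 and PHT1;2 in TAIR10.1, stayed between 4.96 and 40.2 on all 6 arrays. Its difference was 0.97 with a 95% interval of -1.30 to 3.25.

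A further phosphate probe set, listed under PHT1;4 (AT2G38940) and described as AT3G54700, PHT1;7, had 2.02, 43.6 and 1.13 in zone I and 48.4, 53.1 and 172 in zone II. The zones were separated by little, with zone I array 2 just below zone II array 1. Its difference of 4.04 ± 1.36 (SE, n = 3 per zone, adjusted p = 0.0370, limma) shrank to 0.92 with 64 added. The call ended without any 1 of zone I array 1 (3.44) or 3 (3.02) or zone II array 1 (4.37), 2 (4.30) or 3 (3.45), and the difference rose to 5.65 without zone I array 2. PHT1;5, PHT1;8 and PHT1;9, further carriers of the family, were weak in both zones, and their zones overlapped.

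AKT1 and SKOR, potassium genes at either end of the path through the root, were both called toward zone II. AKT1 (AT2G26650), the inward potassium channel of the root epidermis, had signals of 284, 432 and 270.2 in zone I and 1697, 1469 and 1274 in zone II. The zones did not overlap, and the difference was 2.19 ± 0.25 (SE, n = 3 per zone, adjusted p = 4.81e-05, limma). SKOR (AT3G02850), the outward channel that releases potassium into the xylem, had 2.69, 8.61 and 8.51 in zone I and 427, 282 and 32.3 in zone II. Its difference was 4.76 ± 1.09 (SE, n = 3 per zone, adjusted p = 0.00509, limma), or 1.85 with 64 added. The zones did not overlap, yet zone II array 3 was far below the other 2, and without it the difference was 5.90. Omitting 1 array at a time gave differences from 4.04 to 5.90, and SKOR stayed called each time. The SKOR call ended once array 1 was dropped from zone I and zone II together (adjusted p = 0.0717, limma). HAK5, a high-affinity carrier known from potassium-starved roots, had 5.13 to 5.67 in zone I and 16.6 to 82.4 in zone II without overlap, and missed the threshold (2.7 ± 0.99, SE, n = 3 per zone, adjusted p = 0.0536, limma). Without zone II array 1 it passed (3.23, adjusted p = 0.0436, limma). With 64 added its difference was 0.58 (adjusted p = 0.0551, limma). The authors' deposited table listed HAK5 with a log2 fold change of -0.06 (adjusted p = 0.752 in that table).

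Among the 4 sulfate members, 1 of 2 SULTR1 genes and 1 of 2 SULTR2 genes were called, both toward zone II. That made 2 of 4 (50.0%), against 18.1% of all probe sets. SULTR1;2 (AT1G78000), a high-affinity carrier that does most of the sulfate uptake in Arabidopsis roots, had signals of 75.4, 94.8 and 75.0 in zone I and 968, 556 and 355 in zone II. The zones did not overlap, and the difference was 2.83 ± 0.41 (SE, n = 3 per zone, adjusted p = 0.000253, limma). SULTR1;1, the other high-affinity uptake carrier, known to rise under sulfur shortage, overlapped between the zones at 6.04 to 43.7 and 14.2 to 85.5. SULTR2;2 (AT1G77990), a low-affinity carrier of the vascular tissue and the direct neighbour of SULTR1;2 in TAIR10.1, had 18.8, 32.3 and 1.33 in zone I and 89.1, 164 and 102 in zone II. Its difference was 3.62 ± 1.15 (SE, n = 3 per zone, adjusted p = 0.0286, limma), or 1.16 with 64 added. Every zone II array exceeded every zone I array. The difference was 2.21 without zone I array 3, and its call ended without zone II array 1 (3.80), 2 (3.35) or 3 (3.70). SULTR2;1, the other low-affinity vascular carrier, was at 4.69 to 67.9 in zone I and 34.6 to 83.6 in zone II and did not pass (1.00, 95% interval -1.34 to 3.34).

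**Figure D2:**
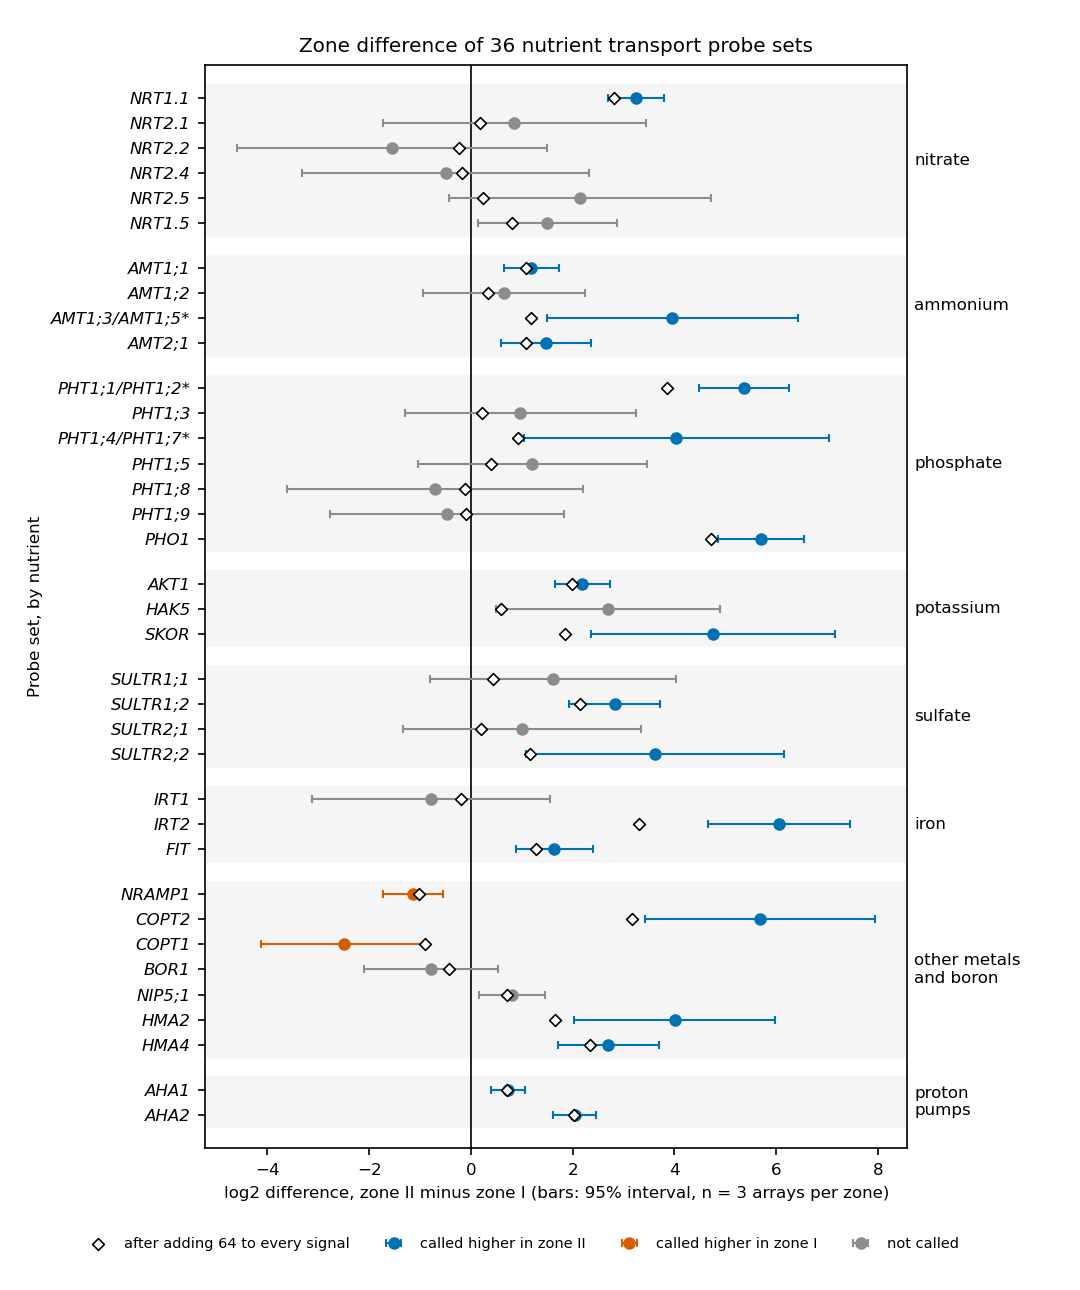
Log2 difference, zone II minus zone I, of the 36 probe sets by nutrient, as filled circles with 95% intervals (3 arrays per zone), coloured by call, and as open diamonds after 64 was added to every signal. An asterisk marks a probe set that may read both genes named. Of the 18 blue circles the highest is IRT2 at 6.06, and the 2 orange circles are NRAMP1 at -1.14 and COPT1 at -2.50.

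Without an offset the largest log2 difference of the 36 was at IRT2 (AT4G19680), a metal transporter of the root epidermis in the same family as IRT1. Its signals were 6.02, 17.2 and 9.99 in zone I and 1244, 576 and 430.0 in zone II. The zones did not overlap, and the difference was 6.06 ± 0.63 (SE, n = 3 per zone, adjusted p = 3.10e-05, limma), or 3.31 with 64 added, where PHO1 and the probe set of PHT1;1 and PHT1;2 exceeded it. FIT (AT2G28160), the bHLH transcription factor that drives the root's response to iron shortage, had 154, 102 and 154 in zone I and 552, 351 and 379.9 in zone II. It was 3.12-fold higher in zone II without overlap (1.64 ± 0.34, SE, n = 3 per zone, adjusted p = 0.00282, limma). IRT1 (AT4G19690), the main iron uptake transporter and the direct neighbour of IRT2 on chromosome 4 in TAIR10.1, had 24.6, 5.44 and 31.8 in zone I and 13.2, 9.67 and 6.49 in zone II. Those signals were weak and overlapped, and the difference was -0.79 with a 95% interval of -3.12 to 1.55.

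Copper transporters of the same family lay on opposite sides. COPT2 (AT3G46900), a copper importer of the root, had signals of 1.98, 27.8 and 49.3 in zone I and 980.4, 1029.9 and 366 in zone II, an adjusted p of 0.00118 (limma). All 3 zone II arrays were far above those of zone I. Its difference of 5.68 ± 1.03 (SE, n = 3 per zone), or 3.16 with 64 added, was 4.28 without zone I array 1, the lowest array of that zone. COPT1 (AT5G59030), a copper importer known from the root tip, had 94.2, 76.1 and 81.9 in zone I and 11.3, 19.7 and 14.4 in zone II. It was higher in zone I without overlap (-2.50 ± 0.74, SE, n = 3 per zone, adjusted p = 0.0199, limma; -0.90 with 64 added). Its call ended without zone I array 1 (-2.42), 2 (-2.57) or 3 (-2.52).

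NRAMP1 (AT1G80830), a transporter of manganese and iron, was the other gene higher in zone I. Its signals were 905, 677 and 869.6 in zone I and 508, 353 and 279.9 in zone II, with no overlap. The difference was -1.14 ± 0.27 (SE, n = 3 per zone, adjusted p = 0.00640, limma), or 2.2-fold. The zinc pumps HMA2 (AT4G30110) and HMA4 (AT2G19110), which load zinc into the xylem, were both higher in zone II. HMA4 had 226, 251 and 112 in zone I and 2353, 1126 and 661 in zone II, with a difference of 2.7 ± 0.45 (SE, n = 3 per zone, adjusted p = 0.000690, limma). HMA2 had 17.5, 28.7 and 3.11 in zone I and 189, 250.2 and 136 in zone II, with a difference of 4.01 ± 0.89 (SE, n = 3 per zone, adjusted p = 0.00440, limma), 1.66 with 64 added and 3.06 without zone I array 3. Neither overlapped between the zones.

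Neither boron gene was called. NIP5;1 (AT4G10380), the boric acid channel of the root surface, had 366, 299.9 and 473 in zone I and 453, 815 and 756 in zone II, so that zone II array 1 fell below zone I array 3. Its difference of 0.81 ± 0.29 (SE, n = 3 per zone) just missed the threshold (adjusted p = 0.0504, limma), and it passed without zone I array 3 (0.98, adjusted p = 0.0455) or zone II array 1 (1.07, adjusted p = 0.0100, limma). BOR1 (AT2G47160), which exports boron toward the xylem, had 159, 83.2 and 143 in zone I and 149, 44.9 and 55.6 in zone II. The zones overlapped, and the difference was -0.78 (95% interval -2.10 to 0.54).

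Both proton pumps were higher in zone II with the smallest standard errors of the 36. AHA2 (AT4G30190), the main proton pump of the root, had signals of 5154, 4265 and 3144 in zone I and 16942, 16964 and 16602 in zone II, with a difference of 2.04 ± 0.19 (SE, n = 3 per zone, adjusted p = 1.54e-05, limma). AHA1 (AT2G18960), the other major plasma membrane pump, had 4175, 3622 and 3562 in zone I and 6332, 6216 and 6184 in zone II, or 0.73 ± 0.15 (SE, n = 3 per zone, adjusted p = 0.00273, limma). Neither pump had overlapping zones. For AHA1 the adjusted p was 0.0550 (limma) when the fit had no intensity trend.

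**Figure D3:**
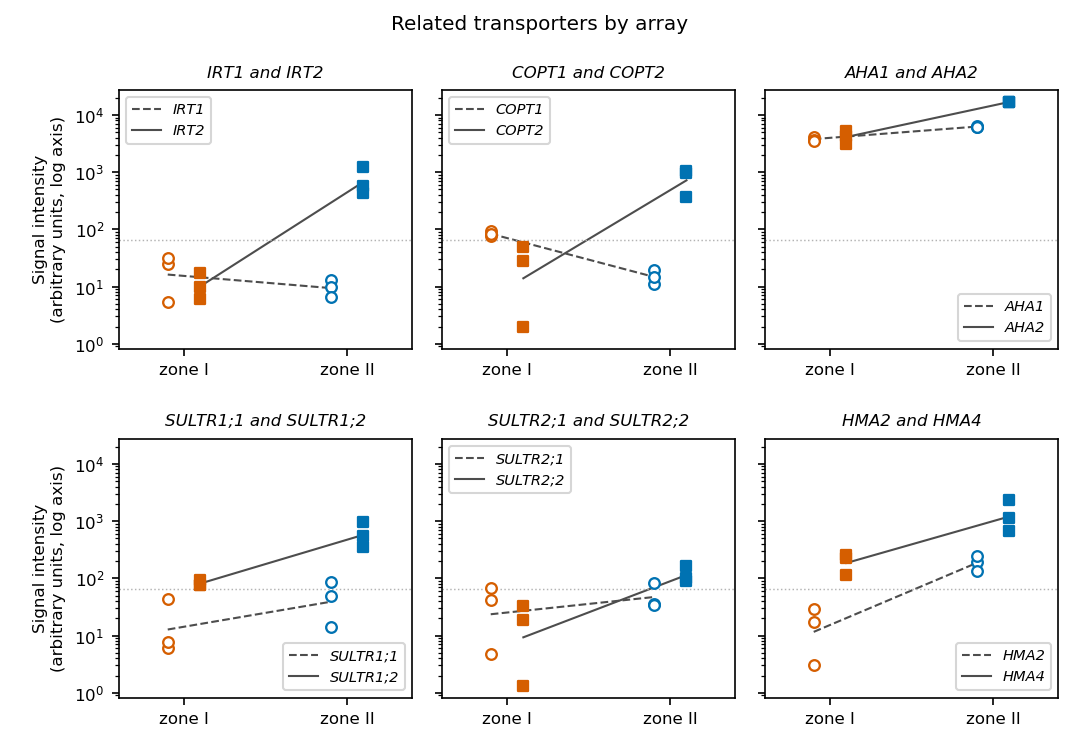
Signal intensity (log axis, arbitrary units) of 6 pairs of related transporters on each array of zone I (orange) and zone II (blue); open circles and dashed lines show the first gene of a pair, filled squares and solid lines the second, lines join geometric means and the dotted line is a signal of 64. Levels of different probe sets are not comparable, so the slopes are to be read. COPT1 slopes down and IRT1 stays weak while IRT2 and COPT2 rise, and AHA2 rises more than AHA1.

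Whether relatives differed from each other in their zone difference was tested on the log2 ratio of their signals per array, for 13 pairs, with an exact two-sided permutation test whose smallest p with 3 arrays against 3 is 0.1. No pair could therefore pass, and the smallest Benjamini-Hochberg value was 0.260. The ratios did not overlap between the zones for 5 of the 13 pairs, from which nothing particular to these pairs is read, since 23.5% and 26.4% of single probe sets did not overlap toward zone II and zone I. COPT2 exceeded COPT1 in its log2 difference by 8.19 ± 1.59 (SE, n = 3 per zone, exact p = 0.1), or by 4.06 with 64 added. For IRT2 over IRT1, which was weak in both zones, the value was 6.85 ± 1.19 (exact p = 0.1), or 3.50 with 64 added. AHA2 exceeded AHA1 by 1.31 ± 0.15 (exact p = 0.1), the probe set of AMT1;3 and AMT1;5 exceeded AMT1;1 by 2.77 ± 1.11 (exact p = 0.1; 0.087 with 64 added), and NRT1.5 differed from NRT1.1 by -1.74 ± 0.64 (exact p = 0.1). The ratio of HMA4 to HMA2 overlapped between the zones, with -1.30 ± 0.77 (exact p = 0.2), and turned to 0.68 with 64 added. SKOR lay above AKT1 by 2.56 ± 1.16 (exact p = 0.2) and at -0.14 with 64 added. SULTR1;2 lay above SULTR1;1 by 1.21 ± 1.53 and SULTR2;2 above SULTR2;1 by 2.62 ± 2.09, both with overlap (exact p = 0.5 and 0.3). Leaving out 1 array at a time moved these values from 0.11 to 2.13 and from 0.81 to 4.29. The other 4 pairs overlapped too, with exact p-values from 0.4 to 1.0.

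By step of the path through the root, 9 of 21 genes for uptake from soil or into root cells passed toward zone II and 2 toward zone I, with a median difference of 1.61. Of 8 genes for movement into or within the vascular tissue, 5 passed toward zone II and none toward zone I, with a median of 3.16. These shares toward zone II were 42.9% for uptake and 62.5% for the vascular step. Over all probe sets 18.1% passed toward zone II and 19.8% toward zone I. The steps' medians with 64 added were 0.58 and 1.41, and whether the steps differ was not tested. The 5 vascular genes called, PHO1, SKOR, SULTR2;2, HMA2 and HMA4, all lay below their zone mean on zone II array 3, where their median log2 deviation from the mean of the other 2 was -1.30. The 9 uptake genes higher in zone II had a median of -0.55 on that array, with 6 of 9 below, and all 18 members higher in zone II one of -0.43, with 14 below. On the same array every marker list had a negative median deviation. It was -0.50 for the 5 xylem and -0.45 for the 6 endodermis markers, each of the 11 below the mean of the other 2 arrays. The medians were -0.31 for root hair, -0.66 for phloem, -0.86 for green tissue, -0.76 for dividing cell and -2.19 for root cap markers. The root cap markers, and the dividing cell markers other than CDKB2;1, had geometric means under 64 in zone II. Their medians on that array therefore rest on weak signals. Of the 4114 probe sets higher in zone II, 2533 were lower there, with a median of -0.14 over the 4114. The part of the marked cell types in the vascular genes' spread was not tested. Without zone II array 3 the differences were 6.14 for PHO1, 5.90 for SKOR, 3.70 for SULTR2;2, 4.23 for HMA2 and 3.14 for HMA4. All were above the values with it, which must follow where all 5 genes lay low on that array. On zone I array 3, too, 4 of these 5 genes lay below the mean of the other 2 arrays, with a median of -1.09 over the 5, and 3 of 5 xylem markers did, with a median of -1.73. Root hair markers had a median of -1.75 there, phloem markers -1.18 and green tissue markers -0.73. Root cap, dividing cell and endodermis markers went the other way, with 1.08, 0.12 and 0.21. Without zone I array 3 the differences were 5.49 for PHO1, 2.21 for SULTR2;2, 3.06 for HMA2 and 2.34 for HMA4, below the values with it, and 5.03 for SKOR, above it. These directions, too, follow from where each gene lay on that array. The sizes for SULTR2;2, HMA2 and SKOR rest on weak signals of 1.33, 3.11 and 8.51 there, and were not computed with 64 added. Most root hair and endodermis markers were also weak in zone I.

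The authors' deposited table of their own comparison, whose log2 fold change was read as zone II over zone I, listed 17 of the 36 as higher in zone II and 2 as higher in zone I at its adjusted p under 0.05. Of all probe sets, 20.0% and 25.6% were listed so there, by the authors' deposited table. Of these calls 17 were also made here in the same direction. NRT1.5 and NIP5;1 passed in the authors' deposited table (adjusted p = 0.0159 and 0.00867) and not here. SKOR and the probe sets of AMT1;3 and AMT1;5 and of PHT1;4 and PHT1;7 passed here and not in the authors' deposited table (adjusted p = 0.0614, 0.0685 and 0.0613). Their log2 fold changes in that table were 2.06, 0.63 and 0.81, in that order, against differences of 4.76, 3.96 and 4.04 here.

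Other genes of the same pathways, 167 of 174 listed, passed toward zone II in 77 cases (46.1%) and toward zone I in 12 (7.19%), against 18.1% and 19.8% of all probe sets. Among 28 genes of nitrogen transport, assimilation and regulation, 16 (57.1%) passed toward zone II and 1 (3.57%) toward zone I. NRT1.2, a low-affinity nitrate carrier, lay at 3.95 ± 0.47 (SE, n = 3 per zone, adjusted p = 6.81e-05, limma), and the glutamine synthetase GLN1;2 at 3.68, or 2.55 and 2.57 with 64 added. The nitrate efflux carrier NAXT1 lay at 4.50 (1.23 with 64 added) on a probe set of the s_at kind that may read relatives, and its call ended without zone I array 1 (3.26) or zone II array 1 (4.24). The glutamine synthetase GLN1;3 was higher in zone I at -0.60, its signal being 10058 there and 6647 in zone II, and its adjusted p was 0.106 (limma) without the intensity trend.

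**Figure D4:**
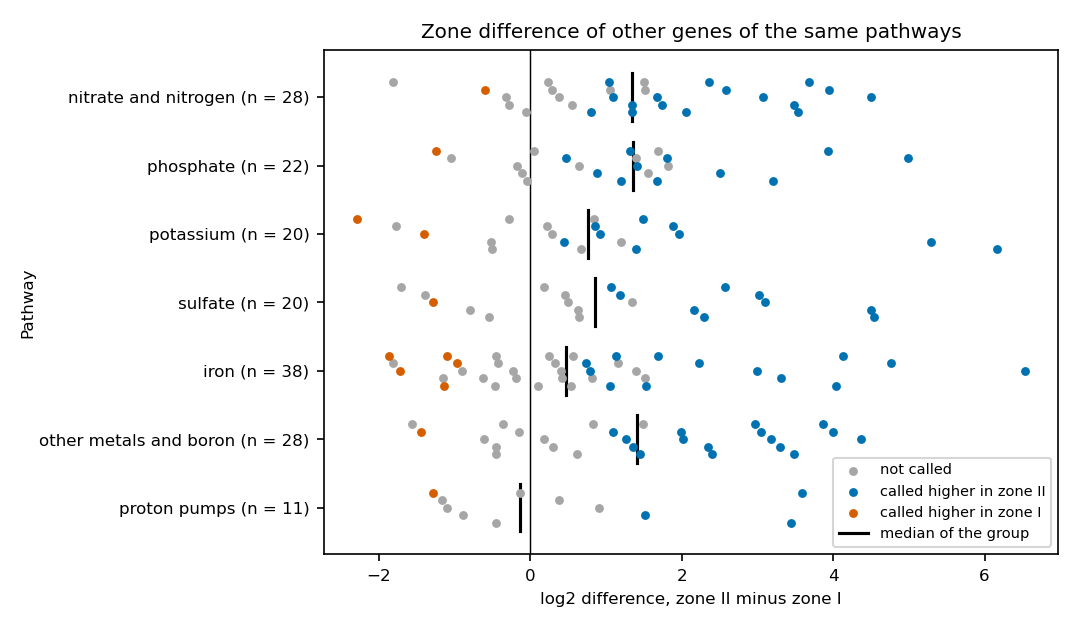
Log2 difference, zone II minus zone I, of 167 other genes of the same nutrient pathways, 1 point per gene, coloured by call, with the median of each group as a black bar; vertical scatter within a row has no meaning. Blue points outnumber orange ones in all 7 rows, and the proton pump row has its median at -0.14.

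Among 22 phosphate genes, 11 (50.0%) passed toward zone II and 1 (4.55%) toward zone I, against 18.1% and 19.8% of all probe sets. WRKY75, a transcription factor of the phosphate starvation response, lay at 4.99 (1.64 with 64 added), PHO1;H1, a relative of PHO1, at 3.94 (2.19 with 64 added), and the oxidase LPR2, which acts in the root tip's response to low phosphate, at 3.21. The purple acid phosphatase PAP12 was higher in zone I at -1.25 ± 0.19 (SE, n = 3 per zone, adjusted p = 0.000446, limma). Among 20 potassium genes, 9 passed toward zone II and 2 toward zone I. KUP9 and KUP6, potassium carriers of the KUP family, lay at 6.16 (3.25 with 64 added) and 1.96, and GORK, the outward channel of guard cells and root hairs, was higher in zone I at -2.28 ± 0.41 (SE, n = 3 per zone, adjusted p = 0.00114, limma). The GORK signal was 313 in zone I against 64.4 in zone II. The second gene higher in zone I, named after its values were seen, was the calcium sensor CBL9 at -1.39.

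Among 20 sulfur genes, 9 passed toward zone II and 1 toward zone I. LSU2 and SDI1, known as marker genes of sulfur shortage, lay at 4.53 and 4.50 (1.83 each with 64 added), and the sulfate carrier family member SULTR3;4 at 3.1 (1.17 with 64 added). LSU2 lost its call without zone II array 2 (4.31, adjusted p = 0.0550, limma). The ATP sulfurylase APS3 was higher in zone I at -1.28, a call that ended without zone I array 1 (-1.08, limma adjusted p = 0.0867). Among 11 further proton pump genes, 3 (27.3%) passed toward zone II and 1 (9.09%) toward zone I, against 18.1% and 19.8% of all probe sets. The plasma membrane pumps AHA7 and AHA3 lay at 3.59 and 3.45 and the vacuolar ATPase subunit VHA-A3 at 1.52, while AVP1, the vacuolar pyrophosphatase, was higher in zone I at -1.28 ± 0.21 (SE, n = 3 per zone, adjusted p = 0.000660, limma).

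Among 38 further iron genes, 13 (34.2%) passed toward zone II and 5 (13.2%) toward zone I, against 18.1% and 19.8% of all probe sets. FRD3, which releases citrate into the xylem for iron transport, had a signal of 7.57 in zone I against 701 in zone II, a difference of 6.53 ± 0.86 (SE, n = 3 per zone, adjusted p = 0.000143, limma) or 3.41 with 64 added. F6'H1, an enzyme of iron-mobilising coumarin synthesis, lay at 4.77 (3.07 with 64 added), and the phloem iron transporter OPT3 at 4.13 (0.96 with 64 added). The 5 higher in zone I were the coumarin glucosidase BGLU42 at -1.86, and, named after their values were seen, the ferritins FER2 (-1.71) and FER3 (-0.97), the bHLH factor PYE (-1.13) and the vacuolar metal exporter NRAMP3 (-1.09). The count was 3 without zone I array 1 or 3 or zone II array 2, and also 3 without the intensity trend.

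Among 28 genes for other metals and boron, 16 (57.1%) passed toward zone II and 1 (3.57%) toward zone I. Over all probe sets these shares were 18.1% and 19.8%. PCR2, a zinc exporter, lay at 4.37 ± 0.30 (SE, n = 3 per zone, adjusted p = 3.69e-06, limma) on an s_at probe set that may read relatives, and the metal carriers ZIP2 and ZIP3 at 4.0 and 3.86 (ZIP3 2.64 with 64 added). The copper and zinc superoxide dismutase CSD2, a user of copper in plastids, was higher in zone I at -1.44, from signals of 1258 and 464.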

How the data were processed

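RNA from pieces of root apex, fixed in RNAlater, was amplified, labelled with biotin and hybridised to Affymetrix arrays, per the labels' protocols. The deposited signals are intensity values made with MAS5 in Affymetrix Expression Console, per the submitters' processing notes. A second deposited table, per the file headers, holds the authors' log2 fold changes and adjusted p-values; its direction, unstated, was read from a correlation of 0.87 with the signal differences over all probe sets. For the array design and genome build, no source used here gives a name.

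The deposited scaling was kept, 64 control probe sets were left out, and log2 signals of 22746 probe sets were fitted with limma 3.58.1 (lmFit, then eBayes with an intensity trend) in R 4.3.3. P-values were two-sided, adjusted by Benjamini-Hochberg over all probe sets and called under 0.05. A gene was treated as weak when its geometric mean was under 64 in both zones. The number of arrays, 3 per zone, limits the precision. Pairs of relatives were compared by exact permutation in Python 3.11.15 with scipy 1.17.1.

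Members were matched by locus to the deposited annotation, and all 39 loci were found in the RefSeq table of TAIR10.1, used for names and neighbours. Every member with a probe set is named. Of each list of other pathway genes, the rule named the 3 called with the largest differences among those reaching 64 in the brighter zone, and the called gene with the largest difference against the majority. Members and lists were chosen with earlier results of these data known. Alternatives were added offsets of 64 and 16, quantile normalization, a filter at the 40th percentile, no trend, robust eBayes, a replicate block and omission of arrays. The fit was tested on simulated data. Promoter motifs and sequences were not analysed here.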

Additional observations from a re-analysis of the deposited data

How the results depend on the processing

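Of the 20 called members, 13 were called under all 14 alternatives. The members higher in zone I numbered 1 under the 40th percentile filter and 1 with the first array of both zones left out. By nutrient, nitrate genes higher in zone II numbered 2 with 64 added, potassium genes 1 without the first arrays, sulfate genes 1 under the filter, 1 without the trend and 1 without the first arrays, and proton pumps 1 without the trend. Metal and boron genes higher in zone I numbered 1 under the filter and 1 without the first arrays. Only the larger changes in a count are listed in this paragraph. PHT1;4, for example, also lost its call without the trend and without the first arrays. Among the other pathway genes, nitrogen genes higher in zone I numbered 0 without the trend and 0 without the first arrays, phosphate genes higher in zone II 7 without the first arrays, sulfur genes higher in zone I 2 under quantile normalization and 2 under the filter, and iron genes higher in zone I 3 without the trend and 3 without the first arrays. The filter left out the probe sets of AMT1;5, PHT1;4, SULTR2;2 and COPT1, which therefore could not be called there. The causes of the other changes were not tested. Fits without the first arrays had fewer arrays and the filtered fit fewer probe sets. The fits with 64 added, without the trend and with quantile normalization used all 6 arrays and all 22746 probe sets. AMT1;5, PHT1;4, SULTR2;2 and COPT1 were each fitted under the other 13 of the 14 alternatives.

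Leaving out 1 array at a time gave 14 to 18 members higher in zone II and 1 to 2 higher in zone I. It gave 1 to 3 ammonium, 2 to 3 phosphate, 2 to 3 potassium and 1 to 2 sulfate genes higher in zone II, and 1 to 2 metal and boron genes higher in zone I. Among other pathway genes higher in zone I it gave 0 to 2 for sulfur, 3 to 5 for iron and 1 to 2 for metals and boron. Toward zone II it gave 8 to 9 for phosphate, 7 to 8 for potassium and 13 to 15 for metals and boron. Those ranges lay below the counts of 11, 9 and 16 with all arrays. The ranges toward zone II for nitrogen (15 to 17), sulfur (8 to 9), iron (11 to 13) and proton pumps (3 throughout) held the counts with all arrays. Signs turned for weak genes that were not called: the log2 difference ran from -0.00071 to 1.64 for NRT2.1, -1.75 to 0.51 for NRT2.4, -1.82 to 0.25 for PHT1;8, -1.19 to 0.15 for PHT1;9 and -0.16 to 1.76 for SULTR2;1. PHT1;4 minus PHT1;2 ran from -2.43 to 0.22 and PHT1;9 minus PHT1;8 from -1.0 to 1.66. With 64 added, SKOR minus AKT1 turned to -0.14 and HMA4 minus HMA2 to 0.68.

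The labels number the arrays of both zones alike, but same-numbered arrays deviated together with correlations of only 0.0041, 0.036 and 0.037, so the numbers were not treated as pairs. Each array had its highest correlation with its own number. With the replicate block 18 members were higher in zone II and 2 in zone I, while other sulfur genes higher in zone I numbered 2 and other metal and boron genes 3. Signal over background limits the 12 weak members.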
